A study of Rattus norvegicus with 47 samples.

Results

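The comparison described here set isolation-reared Wistar rats at postnatal day 40 (Iso P40) against isolation-reared Wistar rats at postnatal day 30 (Iso P30), a step within adolescence. Its members were chosen by the rearing and the age in the sample titles: 5 arrays of Iso P40 and 6 of Iso P30, of 47 arrays in all. Arrays 3 and 4 of Iso P30 lay closer together than any other replicate pair and were averaged, so the comparison rested on 10 of 46 samples, 5 in each group. Socially reared Wistar rats at day 40 (Soc P40) and at day 30 (Soc P30), 6 samples each, gave the matching step without isolation, and Iso P60 and Iso P80 gave later levels. Wistar is an outbred laboratory strain, and total RNA came from the medial prefrontal cortex. The labels name no genetic change, no drug, no sex and no batch, and nothing in them says that each sample is another animal. The limma p-values therefore reflect scatter among samples alone, pooled over the 46 samples of all groups, and part of it may be technical.

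The medial prefrontal cortex takes part in social and executive behaviour and goes on maturing through adolescence. Oligodendrocytes, the myelin-making glia, wrap its axons over this time, and synapses are remodelled. Immediate early genes are transcribed within minutes of neuronal activity, and they serve as a readout of recent activity and of plasticity.

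Signals were 1-colour Affymetrix probe set values on the log2 scale, and a difference is always Iso P40 minus Iso P30 on that scale unless another pair is named. A probe set is a group of probes for a transcript, and a gene may have several. A probe set was called where limma's adjusted p was under 0.05. Each of the 10 samples lay closest to a sample of its own group. Transcripts of neurons (Slc17a7, Camk2a, Gad1), astrocytes (Gfap, Aqp4), oligodendrocytes (Mbp, Mog) and microglia (P2ry12, Csf1r) passed the filter on dim probe sets. Other chosen markers did not pass, among them Cx3cr1 of microglia, Olig2 and Cspg4 of oligodendrocyte precursors and Flt1 of endothelium. A measure of RNA integrity moved with the groups. The Gapdh control's 3' signal over its 5' signal, which rises with RNA degradation, was 1.87 ± 0.097 in Iso P40 and 1.34 ± 0.064 in Iso P30 (SD, n = 5 each, exact permutation p = 0.00794, the smallest this design allows, adjusted p = 0.0159). The actin ratio was 4.20 ± 0.69 in Iso P40 and 2.44 ± 0.14 in Iso P30 (exact p = 0.00794, adjusted p = 0.0159). The hexokinase ratio was 3.89 ± 1.33 in Iso P40 and 3.13 ± 0.46 in Iso P30 (exact p = 0.365). The median linear signal of an array was 75.7 ± 0.84 in Iso P40 and 78.0 ± 1.3 in Iso P30 (exact permutation p = 0.0159, adjusted p = 0.0212). In socially reared rats the Gapdh ratio was 1.61 ± 0.091 at P40 and 1.52 ± 0.042 at P30 (SD, n = 6 each). Counts from a fit with the Gapdh ratio as a covariate stand beside the list counts that it moves by over 1.5 times, and the changes it makes to the largest rises and falls are given with them. The Gapdh ratios of Iso P40 and Iso P30 do not overlap, so the ratio and the age cannot be told apart. The fit takes its slope from samples within groups and carries it across the gap between them. Its values are therefore a description and not a correction for RNA integrity.

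**Figure D1:**
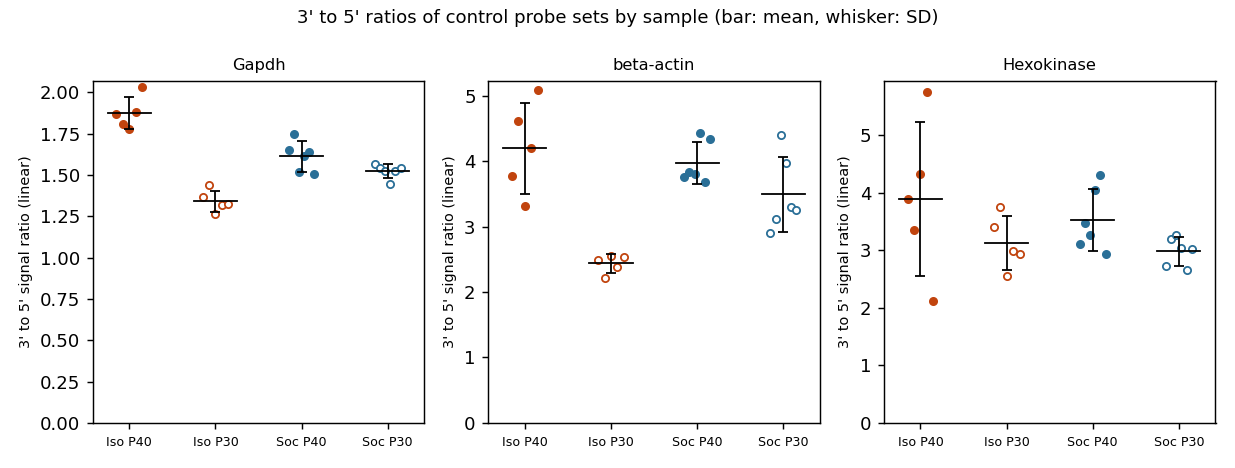
Signal at the 3' end over signal at the 5' end for 3 control transcripts (linear scale), 1 point a sample, with mean and SD, in Iso P40, Iso P30, Soc P40 and Soc P30. The Gapdh and actin ratios of Iso P40 lie above all those of Iso P30, while the hexokinase ratios overlap.

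Between the ages, 2656 of 12149 probe sets were called (21.9%), of which 1410 were higher (11.6%) and 1246 lower (10.3%) in Iso P40. Most differences were small, with a median over all probe sets of 0.02, and 485 were over 0.5 in size (3.99%), 77 higher (0.634%) and 408 lower (3.36%). The excess of large falls lay in dimmer probe sets. Of the 408, 345 had 1 gene symbol, and 290 of these belonged to a gene with a brighter probe set. That brighter probe set was called lower in 42, called higher in 32 and not called in 216, and its median difference was -0.001, against -0.74 for the 290 themselves. When each gene was counted once, through its brightest probe set, 1424 of 7898 genes were called (18%), with 981 higher (12.4%), 443 lower (5.61%) and a median of 0.04. The gene groups below were counted in that way, and these shares are the background for their counts. Among 1403 genes with several probe sets, 45 were lower in all of them (3.21%), 13 were higher in all and 77 held calls in both directions.

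Most immediate early genes rose. Of 16 measured genes in the list (25 were in the deposited table and 9 did not pass the filter on dim probe sets), 9 were higher in Iso P40, none was lower and 7 were not called, against 12.4% higher among all genes. The list's median was 0.24, against 0.04 over all genes, and its mean level lay between 7.61 and 7.72 in the Iso P40 samples and between 7.34 and 7.41 in the Iso P30 samples. The genes that rose include transcription factors (Fos, Egr1, Egr2, Nr4a1, Klf2), the synaptic regulator Arc and the MAP kinase phosphatases Dusp1 and Dusp6.

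Promoter sequence is shown for the 3 members that rose and held a binding motif of activity-regulated transcription in the 250 bases before the gene start (RefSeq, GRCr8). Capitals mark the cAMP response element TGACGTCA in Dusp1, the site of CREB, and the CArG box in Egr2 and Egr1, the site of serum response factor. Both strands were searched, and none of the 10 measured list members with a promoter sequence held both motifs. Arc, Fos and Klf2, which also rose, had no promoter sequence to search.
Dusp1, chr10:17184709-17184756, plus strand: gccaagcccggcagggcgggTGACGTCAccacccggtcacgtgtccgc
Egr2, chr20:21054495-21054544, minus strand: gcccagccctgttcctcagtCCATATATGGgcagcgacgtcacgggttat
Egr1, chr18:26736953-26737024, plus strand: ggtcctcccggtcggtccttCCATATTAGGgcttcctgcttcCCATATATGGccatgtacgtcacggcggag
Of 10 measured list members matched to the promoter table, 6 had risen, of which 1 held the cAMP response element and 2 the CArG box, and 4 were not called, of which none held either. Among all 33469 rat promoters of that length, 1.59% held the cAMP response element and 1.5% the CArG box. A match describes the letters in the window and says nothing of use in these animals.

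Arc, whose protein acts in synaptic plasticity, had log2 signals of 8.21, 8.22, 8.26, 8.27 and 8.31 in Iso P40, against 7.59, 7.61, 7.46, 7.67 and 7.57 in Iso P30. All Iso P40 samples lay above all Iso P30 samples, and the difference was 0.68 ± 0.04 (SE; limma adjusted p = 4.03e-18). Fos, a subunit of AP-1, had 7.10, 6.93, 7.28, 6.90 and 6.73 in Iso P40, against 6.16, 5.97, 6.50, 6.05 and 6.28 in Iso P30. Its groups did not overlap either, and it rose by 0.80 ± 0.10 (adjusted p = 1.85e-08), which is 1.74-fold. Dusp1 had 8.44, 8.53, 8.49, 8.54 and 8.35 in Iso P40, against 7.83, 8.12, 8.17, 8.06 and 7.84 in Iso P30, a rise of 0.46 ± 0.07 (adjusted p = 4.21e-06). Egr2, a zinc finger factor, rose by 0.40 ± 0.07, with 6.36, 6.32, 6.47, 6.34 and 6.32 in Iso P40 against 5.84, 6.19, 5.91, 6.07 and 5.77 in Iso P30. Smaller rises were found for Nr4a1 (0.25), Egr1 (0.17), Ier5 (0.17) and Dusp6 (0.26). The groups overlapped for Dusp6 alone among these 4.

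Probe sets disagreed for 2 genes of this list. Klf2 rose by 0.54 ± 0.11 through its brighter probe set (adjusted p = 0.000169), while its other probe set was lower by a difference of -0.47 ± 0.13 (adjusted p = 0.00691). Homer1, a postsynaptic scaffold with a short activity-induced form, was not called through its brightest probe set (0.08 ± 0.05). Of its other probe sets, those at 0.31 and 0.33 were called higher and that at -0.31 was called lower. Members that were not called had differences between -0.04 (Egr4) and 0.29 (Junb). With the Gapdh and actin ratios as covariates 5 of the 16 rose, and with the Gapdh ratio alone 7 did.

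**Figure D2:**
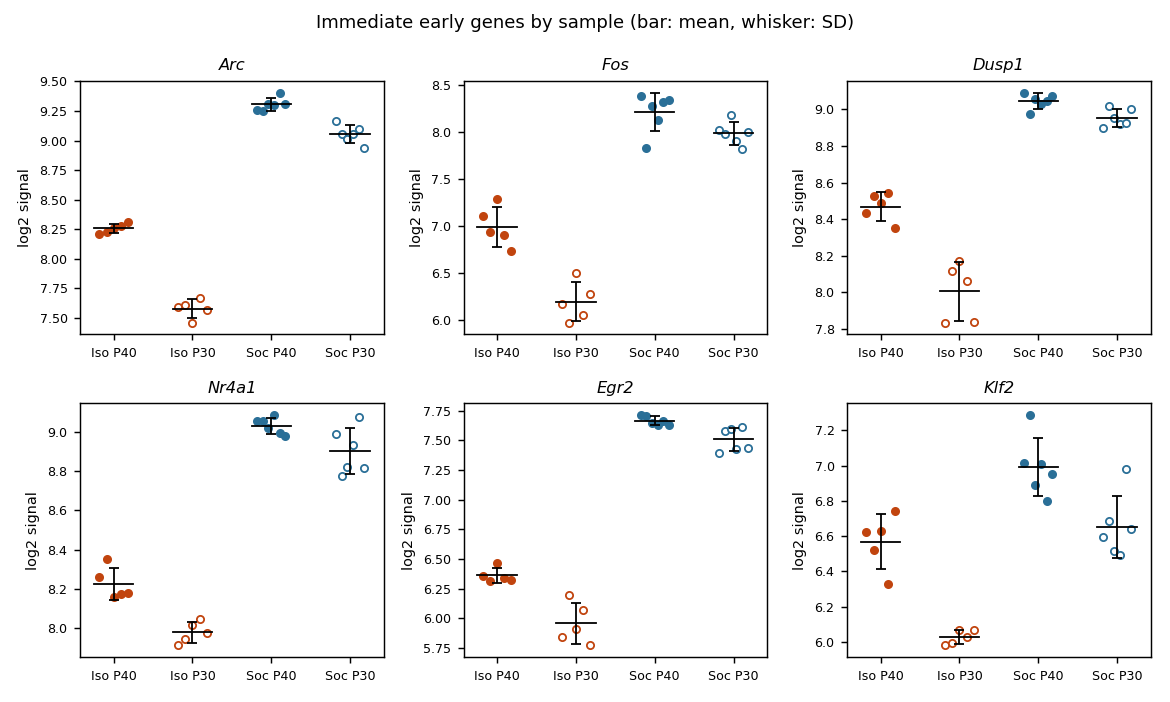
Log2 signal of the 6 immediate early genes of smallest adjusted p, 1 point a sample, with mean and SD, in Iso P40, Iso P30, Soc P40 and Soc P30 (each panel has its own axis, which does not start at 0). In all 6 the Iso P40 samples lie above the Iso P30 samples and below the mean of Soc P40.

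For part of the immediate early gene list the step was higher in isolated than in social rats. Isolated rats had the lower level at both ages. The list's mean level was 7.38 in Iso P30 and 7.66 in Iso P40, against 8.11 in Soc P30 and 8.15 in Soc P40. In Soc P40 against Soc P30, 3 of the 16 genes rose and 4 fell, with a median of 0.11, where 12.9% of all genes rose and 11.5% fell (24.5% in either direction). The test of the difference between the steps, in which Iso and Soc share no sample, passed for 7 genes, all with the larger value in isolated rats, against 8.93% of all genes. Arc stepped by 0.68 in Iso and 0.25 in Soc (difference 0.43 ± 0.06, adjusted p = 2.15e-07), and Fos by 0.80 in Iso and 0.23 in Soc (difference 0.57 ± 0.14, adjusted p = 0.00246). Klf10 stepped by 0.10 in Iso, where it was not called, and by -0.47 in Soc (difference 0.57, adjusted p = 2.99e-05). For Egr2, Nr4a1, Klf2 and Dusp6 the steps did not differ at this threshold.

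Most myelin genes fell. Of 24 measured genes of mature oligodendrocytes and myelin, 14 were lower in Iso P40, none was higher and 10 were not called, against 5.61% lower among all genes. The median was -0.27, and the list's mean level lay between 8.49 and 8.52 in the Iso P40 samples and between 8.74 and 8.79 in the Iso P30 samples. In bulk tissue fewer cells of a type and less RNA per cell cannot be told apart. The fall included structural proteins of the sheath (Mbp, Mobp, Mog, Mag, Cnp, Mal, Cldn11, Tspan2), enzymes of myelin lipid and its precursors (Ugt8, Aspa), the lysophosphatidic acid receptor Lpar1 and Myrf, the transcription factor that drives the myelin programme.

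Ugt8, which makes the galactosyl lipid of myelin, had 7.31, 7.36, 7.58, 7.51 and 7.22 in Iso P40, against 8.33, 8.29, 8.40, 8.45 and 8.46 in Iso P30. Every Iso P40 sample lay below every Iso P30 sample, and Ugt8 fell by 0.99 ± 0.08 (limma adjusted p = 3.72e-14). Mal, a raft protein of myelin, had 9.002, 8.95, 8.96, 9.03 and 9.03 in Iso P40, against 9.43, 9.48, 9.45, 9.40 and 9.58 in Iso P30, and fell by 0.47 ± 0.04 (adjusted p = 1.19e-13). Mog, at the outer face of the sheath, had 7.90, 8.09, 7.997, 7.93 and 7.97 in Iso P40, against 8.45, 8.33, 8.42, 8.42 and 8.41 in Iso P30. The 2 groups were again apart, and Mog fell by 0.43 ± 0.05. Mag fell by 0.39 ± 0.06 and Aspa by 0.43 ± 0.11, also with no overlap. For Gsn, Myrf and Evi2a, with differences of -0.18, -0.31 and -0.17, the groups overlapped.

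Several probe sets of 1 gene moved together in this list. Of 8 myelin genes with several probe sets, 6 were lower in all of them, against 3.21% among all such genes. Both probe sets of Tspan2, a tetraspanin, fell, by 0.62 and 0.51, and both of Lpar1, by 0.50 and 0.40. The size differed between probe sets of other genes. Mbp, myelin basic protein, fell by 0.30 ± 0.08 through its brighter probe set, with 11.37, 11.37, 11.18, 11.45 and 11.49 in Iso P40 against 11.69, 11.73, 11.53, 11.68 and 11.71 in Iso P30. Through its other probe set Mbp fell by 2.07 ± 0.05, with 8.48, 8.39, 8.37, 8.52 and 8.46 in Iso P40 against 10.36, 10.54, 10.49, 10.59 and 10.61 in Iso P30. Mobp fell by 0.39, 0.57 and 2.18 through its probe sets, from the brightest down. Cnp fell by 0.38 and 0.98, and Cldn11, the claudin of myelin, by 0.34 and 1.31, in each the brighter first. Ermn and Car2 were not called through any probe set. With the Gapdh ratio as a covariate, and with both ratios, 11 of the 24 genes fell.

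**Figure D3:**
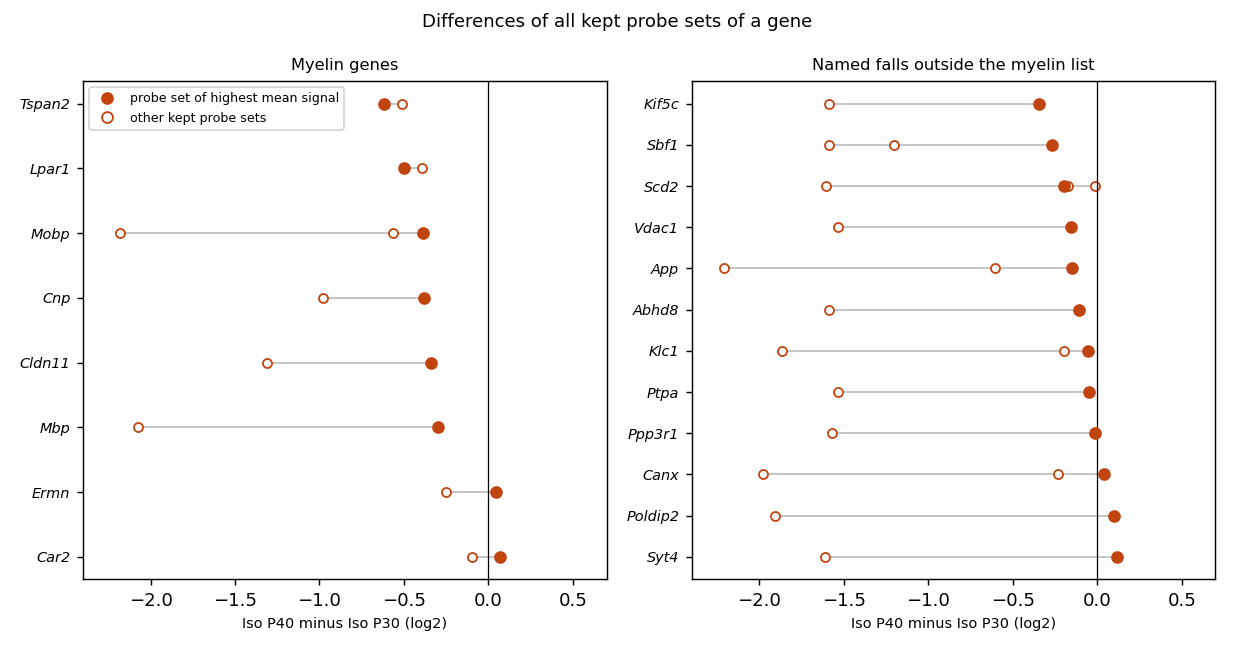
Difference Iso P40 minus Iso P30 (log2) of every kept probe set of the myelin genes with several probe sets (left) and of the other genes among the 15 largest falls that have several (right), with the brightest probe set of each gene filled. The filled points of 6 myelin genes lie between -0.62 and -0.30, while the largest falls on both sides sit in open points.

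Other genes of the oligodendrocyte lineage moved less evenly. Of 6 measured genes of precursor cells, Bcas1 fell by 0.50 ± 0.07 and Olig1 by 0.19 ± 0.04, Ptprz1 rose by 0.24 ± 0.06 and 3 were not called. Among all genes 12.4% rose and 5.61% fell. Without sample 1 of Iso P40 2 of the 6 rose. The median of the 6 was -0.05, and 0.18 with the Gapdh ratio as a covariate. Bcas1 is also known from oligodendrocytes that have begun to make myelin. Pdgfra, the receptor that defines precursors, averaged 8.14 ± 0.16 in Iso P40 and 7.99 ± 0.04 in Iso P30 and was not among the called members. The precursor markers Olig2 and Cspg4 lay below the filter on dim probe sets. Of 18 genes of cholesterol synthesis and uptake, a pathway that myelination draws on, Cyp51 fell by 0.29 ± 0.05, Idi1 by 0.48 ± 0.14 and 16 were not called. Of the 18, 1 rose and 1 fell with the Gapdh ratio as a covariate.

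The fall in myelin genes differed from the social step. In Soc P40 against Soc P30, 6 of the 24 genes rose and 6 fell, with a median of 0.06, where 12.9% of all genes rose and 11.5% fell. For 14 of the 24 the step was lower in isolated rats, against 5.95% of all genes. Mal stepped by -0.47 in Iso and 0.06 in Soc (difference -0.53 ± 0.05, adjusted p = 1.75e-10), and Mog by -0.43 in Iso and 0.08 in Soc (difference -0.51 ± 0.07, adjusted p = 2.45e-07). Ugt8 stepped by -0.99 in Iso and -0.41 in Soc (difference -0.58, adjusted p = 0.000113). Tspan2 fell in both rearings, by 0.62 in Iso and 0.50 in Soc, and its steps did not differ at this threshold (adjusted p = 0.241). Through the dimmer probe sets Mbp and Mobp stepped by -2.07 and -2.18 in Iso and by -0.85 and -1.02 in Soc (adjusted p of the difference 8.07e-18 and 4.09e-19).

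**Figure D4:**
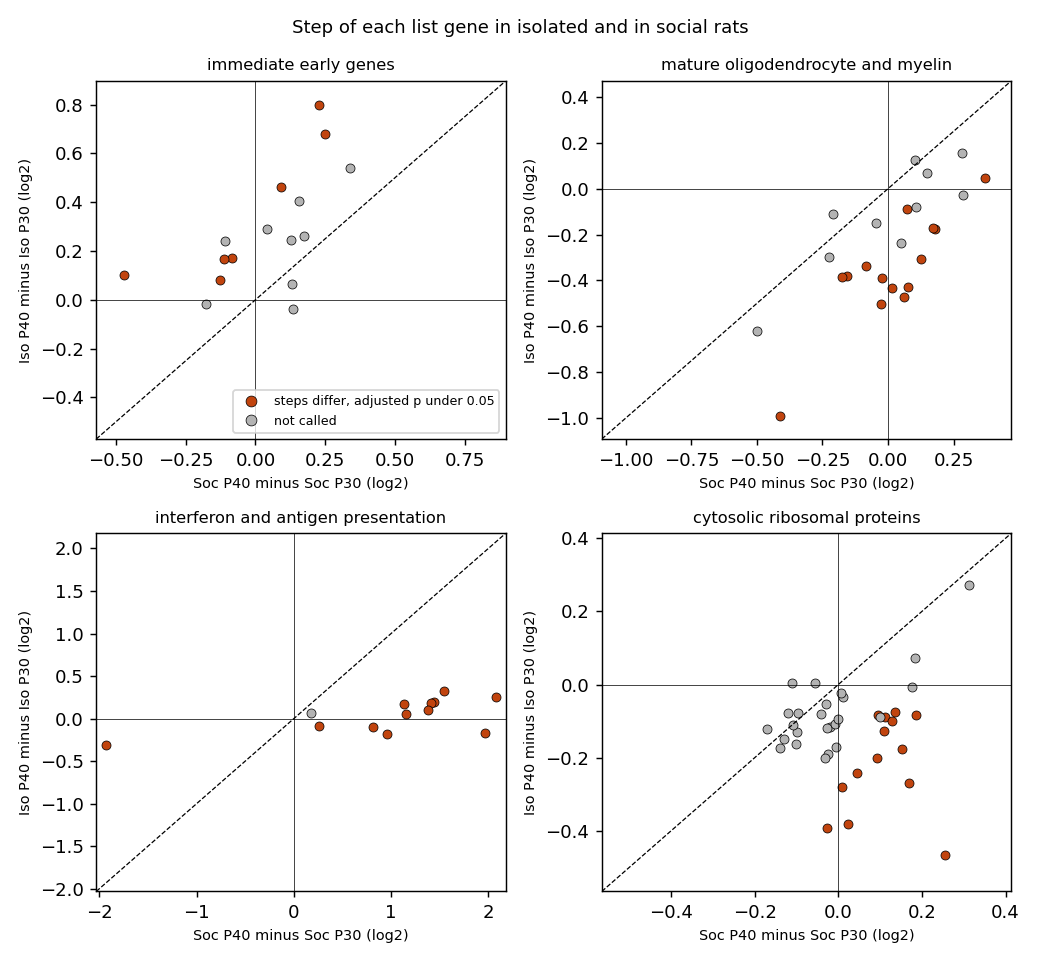
Step from P30 to P40 (log2 difference) of each measured gene of 4 lists, in isolated rats (vertical axis) against social rats (horizontal axis), with genes whose steps differ in red and equal steps on the dashed line. Most myelin genes lie below the line, 7 immediate early genes lie above it in red, and interferon genes spread along the social axis.

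Some cytosolic ribosomal protein genes fell. Of 39 measured genes, 14 were lower, against 5.61% of all genes, none was higher and 25 were not called, with a median of -0.11. Rps9, of the small subunit, had 9.63, 9.48, 9.51, 9.59 and 9.66 in Iso P40, against 9.87, 9.95, 9.94, 10.06 and 10.01 in Iso P30, and fell by 0.39 ± 0.04 (adjusted p = 1.45e-09). Rps24 fell by 0.38 ± 0.06, Rpl14 of the large subunit by 0.28 ± 0.05, Rplp0 of the stalk by 0.24 ± 0.04 and Rps16 by 0.20 ± 0.05, each with no overlap. In social rats 6 of the 39 rose and 2 fell, against 12.9% and 11.5% of all genes. The steps differed for 14 genes, all lower in isolated rats, against 5.95% of all genes. Without sample 3 of Iso P40 the count that fell was 9, and with the Gapdh ratio as a covariate it was 30.

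Some receptor and channel genes of neurons rose. Of 12 measured glutamate receptor genes, 5 rose, against 12.4% of all genes, and none fell: the NMDA receptor subunit Grin2a, the AMPA receptor subunits Gria3 and Gria4 and the metabotropic receptors Grm3 and Grm8. Grin2a had 6.33, 6.33, 6.24, 6.28 and 6.22 in Iso P40, against 4.996, 5.78, 5.75, 6.09 and 5.17 in Iso P30. These groups did not overlap, the Iso P30 samples spread more widely, and Grin2a rose by 0.72 ± 0.16 (adjusted p = 0.000724). Grm3 rose by 0.26 ± 0.09, also with no overlap, and Gria4 by 0.58 ± 0.20, with overlap. The count was not stable: it was 2 with the Gapdh ratio as a covariate, 3 under quantile normalization, and 2 without sample 1 of Iso P40, without sample 1 of Iso P30 or without sample 2 of Iso P30. It was 3 without samples 3, 4 or 5 of Iso P40 or sample 6 of Iso P30, each left out in turn. Between rearings the steps differed for 2 of the 12 genes, a share near the 14.9% of all genes.

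Of 14 measured sodium, calcium and HCN channel genes, 5 rose, against 12.4% of all genes, and none fell. Scn1a, a sodium channel of fast-spiking interneurons among others, had 7.95, 8.05, 7.93, 7.97 and 7.95 in Iso P40, against 7.72, 7.58, 7.65, 7.48 and 7.61 in Iso P30, and rose by 0.36 ± 0.05 (adjusted p = 1.13e-07). The calcium channel subunits Cacnb1 and Cacna1b rose by 0.53 and 0.16, and the sodium channel beta subunits Scn4b and Scn3b by 0.18 and 0.12, with overlap of the groups in these 4. The other probe set of Scn3b was called lower, at -0.09. The count was 2 with the Gapdh ratio as a covariate and 3 without sample 4 of Iso P40 or without sample 1 of Iso P30. Of 26 potassium channel genes 6 rose and 2 fell, against 12.4% and 5.61% of all genes. With single samples left out 4 to 7 rose and 1 to 4 fell. The number that fell was 4 without sample 5 of Iso P40, and 1 without sample 4 of Iso P40, without sample 1 of Iso P30, without the averaged sample of Iso P30 or with the Gapdh ratio as a covariate. Kcnj6, a G protein-gated channel, rose by 0.37 ± 0.05 in Iso and stepped by -0.18 in Soc (difference 0.55, adjusted p = 4.5e-08). Its partner Kcnj3 fell by 0.47 ± 0.13, with overlap of the groups.

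Of 28 measured presynaptic and vesicle genes, 4 rose, a share near the 12.4% of all genes, and 7 fell, against 5.61% of all genes. The median was -0.01. None rose and 14 fell with the Gapdh ratio as a covariate. In social rats 2 of the 28 rose and 15 fell, against 12.9% and 11.5% of all genes, with a median of -0.13. Syt1, the calcium sensor of transmitter release, had 6.78, 6.93, 7.00, 6.99 and 6.65 in Iso P40, against 8.29, 8.18, 8.39, 8.04 and 8.16 in Iso P30. This was the largest fall of the list, 1.34 ± 0.07 (adjusted p = 1.7e-21), and in Soc Syt1 also fell, by 0.97. Sh3gl2, an endophilin of vesicle recycling, fell by 0.86, Rims1, a scaffold of the active zone, by 0.76, and Amph, amphiphysin, by 0.45. Cplx2, a complexin that acts on the release machinery, fell by 0.71 in Iso and stepped by 0.32 in Soc (difference -1.03, adjusted p = 1.69e-06). Vamp1, a vesicle SNARE, rose by 0.24 through its brightest probe set, while its other probe set fell by 0.61. Sv2b, a vesicle glycoprotein, rose by 0.39.

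On the postsynaptic side, 5 of 19 measured density genes rose, against 12.4% of all genes, and 2 fell, against 5.61% of all genes. The number that fell was 1 without sample 6 of Iso P30 and with the Gapdh ratio as a covariate. The scaffolds Dlgap1, Dlgap4, Shank3 and Shank2 rose by 0.36, 0.30, 0.22 and 0.16, and for each the steps differed between rearings (adjusted p from 0.000587 for Dlgap1 to 0.023 for Shank3). Of the other probe sets of Dlgap1, those at -0.18 and -0.91 were called lower. Cacng3, an auxiliary subunit of AMPA receptors, fell by 0.42 ± 0.07. Camk2a, the plasticity kinase, fell by 0.13 ± 0.04 in Iso and rose by 0.56 in Soc (difference -0.69, adjusted p = 2.12e-13). Genes of immature neurons and neurite growth were 3 higher and 7 lower of 26, against 12.4% and 5.61% of all genes. Of the 26, 1 was higher with the Gapdh ratio as a covariate. Marcks, Cd24, Basp1, Nfasc and Nnat fell by 0.36, 0.33, 0.34, 0.28 and 0.41, with no overlap of the groups. In social rats 13 of the 26 fell and 2 rose, against 11.5% and 12.9% of all genes.

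Of 22 astrocyte genes 2 rose and 5 fell, against 12.4% and 5.61% of all genes. Gjb6, a gap junction gene, rose by 0.37, and Fgfr3 rose too. The falls included Apoe by 0.32 and the glial glutamate transporters Slc1a3 by 0.20 and Slc1a2 by 0.40. The number that fell was 3 without sample 3 of Iso P40 and 9 with the Gapdh ratio as a covariate. The number that rose was 1 without sample 1, 2 or 3 of Iso P40 or sample 5 of Iso P30, each left out in turn. Of 13 microglial genes Lyz2 and Ctss rose, by 0.17 and 0.20, a share near the 12.4% of all genes, and none fell. Only 1 rose without sample 1, 3, 4 or 5 of Iso P40 or sample 1 or 2 of Iso P30, each left out in turn, and none with the Gapdh ratio as a covariate. Of 13 genes of the perineuronal net and matrix 3 rose and 4 fell, against 12.4% and 5.61% of all genes, and 1 rose with the Gapdh ratio as a covariate. Sparc, a matrix glycoprotein, fell by 0.70 ± 0.07 in Iso and stepped by -0.04 in Soc (difference -0.66, adjusted p = 4.73e-06). Of 16 interneuron genes 3 rose (Slc32a1 by 0.27, Reln by 0.16 and Gad1 by 0.10), against 12.4% of all genes, and none fell. The other probe set of Reln was called lower, at -0.37. Interneuron genes numbered 1 higher and 1 lower with the Gapdh ratio as a covariate. Of 66 oxidative phosphorylation genes 4 rose and 8 fell, against 12.4% and 5.61% of all genes. These counts were not stable. The number that fell was 13 without sample 5 of Iso P40 and 3 without sample 3 of Iso P40, 4 without sample 2 of Iso P30, and 5 without sample 2 of Iso P40 or sample 5 or 6 of Iso P30. The number that rose was 1 without sample 2 of Iso P30, and 2 without sample 2 or 5 of Iso P40 or sample 5 of Iso P30. None rose and 35 fell with the Gapdh ratio as a covariate. Of 33 proteasome genes 5 rose and 3 fell, shares near those of all genes. With the covariate 3 rose and 5 fell, and without sample 5 of Iso P30 3 rose. Among 17 neurotrophin and growth factor genes 5 rose, against 12.4% of all genes, and none fell, led by Igfbp2 at 0.47 ± 0.12, which is also made in the meninges and the choroid plexus. The count was 2 without sample 1 or 2 of Iso P40 or sample 1 of Iso P30, and 3 without sample 3 or 5 of Iso P40 or sample 2, the averaged sample or sample 6 of Iso P30, each left out in turn. With the Gapdh ratio as a covariate none rose and 2 fell. Of 14 clock genes Dbp, an output gene of the circadian clock, fell by 0.40 ± 0.07, and Csnk1d, a kinase of clock proteins, rose by 0.23 through its brightest probe set, while its other probe sets were called lower, at -0.82 and -0.87. These were 1 fall and 1 rise of 14, against 5.61% and 12.4% of all genes. Without sample 4 of Iso P40 2 clock genes fell, and with the Gapdh ratio as a covariate none did.

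The largest rise was that of Ttr, transthyretin, a thyroid hormone carrier that the choroid plexus makes in bulk. Ttr had 8.05, 8.001, 8.11, 7.83 and 8.08 in Iso P40, against 6.84, 6.80, 6.68, 6.40 and 6.19 in Iso P30, and rose by 1.43 ± 0.11 (adjusted p = 1.6e-14), with no overlap. In social rats Ttr went the other way, with 6.05, 6.23, 5.90, 6.33, 5.90 and 5.86 in Soc P40 against 9.78, 9.71, 9.67, 9.67, 9.55 and 9.79 in Soc P30. The steps differed by 5.08 ± 0.15 (adjusted p = 3.14e-30). The other choroid plexus markers lay below the filter on dim probe sets. Folr1 averaged 5.21 in Iso P40 and 5.56 in Iso P30, Kcne2 averaged 4.75 in Iso P40 and 4.97 in Iso P30, and Sostdc1 averaged 5.08 in Iso P40 and 4.47 in Iso P30. The ependymal factor Foxj1 averaged 4.50 in Iso P40 and 4.37 in Iso P30. Rbp4, a retinol carrier, rose with Ttr, by 0.47 ± 0.13. Of 12 measured genes of meninges and fibroblasts 3 rose (Igfbp2 by 0.47, Igf2 by 0.27 and Ptgds by 0.17), against 12.4% of all genes. Col4a1 fell by 0.41, and the median of the 12 genes was 0.17. Their mean level lay between 7.02 and 7.18 in the Iso P40 samples and between 6.90 and 7.07 in the Iso P30 samples. The number that rose was 1 without sample 1 of Iso P40 or sample 1 of Iso P30, and none rose with the Gapdh ratio as a covariate. The part of choroid plexus and meningeal tissue in the Ttr values was not tested.

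The other 14 largest rises were smaller. Fbxw7, a subunit of a ubiquitin ligase, rose through both its probe sets. The brighter had 7.87, 7.88, 7.998, 7.84 and 7.93 in Iso P40, against 6.73, 7.02, 6.89, 6.79 and 6.94 in Iso P30, and rose by 1.03 ± 0.08 (adjusted p = 9.83e-14). Thoc2, of the mRNA export complex, rose by 1.09, Zdhhc20, a palmitoyl transferase, by 0.83, Cadm1, a synaptic adhesion molecule, by 0.82, and Lpgat1, a lysophospholipid acyltransferase, by 0.76, each through its brightest probe set. The rise of Ccdc127 was 0.76 ± 0.18. Sorl1, a sorting receptor that binds the amyloid precursor, rose by 0.94 ± 0.05 (adjusted p = 1.34e-21) through 1 probe set, with 9.12, 9.14, 9.22, 9.26 and 9.17 in Iso P40 against 8.14, 8.25, 8.30, 8.21 and 8.28 in Iso P30. Its brightest probe set rose by 0.12 and another by 0.26, and 3 were not called.

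Of the 15 rises, 8 were through the brightest probe set of the gene and 7 through a dimmer one. Among the 7, the brightest was also called higher for Sorl1, Wasl (0.18) and Camta1 (0.31), and it was not called for Degs1, Naa15, Tlk1 and Wdfy1. Wasl, which nucleates actin branching, rose by 1.13 through the probe set of smallest p and had another probe set called lower, at -0.48. Degs1, a desaturase of sphingolipid synthesis, rose by 1.15 through 1 of 3 probe sets, Naa15, of an acetyltransferase, by 1.12 through 1 of 4, and the kinase Tlk1 by 1.03 through 1 of 2. With the Gapdh ratio as a covariate all 15 were still called higher, and the values of some were larger: 1.90 for Degs1, 1.399 for Cadm1, 1.39 for Fos, 1.21 for Camta1 and 1.46 for Ccdc127. Smaller values were 0.75 for Fbxw7, 0.73 for Wdfy1 and 1.39 for Ttr, and Tlk1 stayed at 1.03.

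The 15 largest falls rested mostly on dimmer probe sets. Of the 15, 14 were through a dimmer probe set. The brightest one was called lower for 6 of them and was not called for 8. App, the amyloid precursor, fell by 2.21 ± 0.09 (adjusted p = 6.54e-25), with 5.81, 5.68, 5.72, 5.48 and 5.88 in Iso P40 against 7.76, 7.72, 7.92, 8.19 and 8.01 in Iso P30. The next brighter probe set of App fell by 0.60 ± 0.06, and the brightest had a difference of -0.15 ± 0.08 and was not called (adjusted p = 0.162). For Canx, an endoplasmic reticulum chaperone, the differences were -1.98, -0.23 and 0.04 from the dimmest probe set to the brightest, the last not called. Klc1, a kinesin light chain, fell by 1.87, and its brightest probe set had a difference of -0.06 and was not called. The differences of Syt4, Abhd8, Ppp3r1 (a calcineurin subunit), Ptpa and Poldip2 were -1.61, -1.59, -1.57, -1.53 and -1.91, and their brightest probe sets had differences between -0.11 and 0.12, not called. The Poldip2 value rested in part on sample 2 of Iso P40, at 2.73, while the other Iso P40 samples lay between 4.84 and 5.58.

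Falls in which the brightest probe set moved too were those of Mobp, Mbp, Scd2, Sbf1, Kif5c and Vdac1. Scd2, a fatty acid desaturase of brain, fell by 1.61 ± 0.04 and through its brightest probe set by 0.19. Kif5c, a kinesin heavy chain of neurons, fell by 1.59 ± 0.13 and by 0.34 ± 0.05 through its brightest, and Sbf1 through all 3 of its probe sets, by 1.59, 1.201 and 0.27. Actr2-ps1 fell by 1.80 ± 0.14 and had no other probe set. With the Gapdh ratio as a covariate all 15 were still called lower, with -2.91 for Poldip2 and -1.18 for Actr2-ps1. With each gene taken through its brightest probe set, a view chosen after the values were seen, the falls over 0.5 numbered 55 genes (0.696%) and the rises 34 (0.43%), together 1.13%. Beyond the genes above they include Wac (-1.48), Ppm1a (-1.38), the CaM kinase gene Camk2g (-1.01) and its inhibitor Camk2n1 (-0.86) among the falls. Ppm1a had 5.91, 5.55, 5.08, 5.89 and 2.87 in Iso P40, so that its value rested in part on sample 5. The ubiquitin ligase Ube3a (0.69) was among the rises.

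The step differed between isolated and social rats in 2028 of 12149 probe sets (16.7%), with 1083 higher (8.91%) and 945 lower (7.78%) in isolated rats. By the brightest probe set of each gene it differed in 1175 of 7898 (14.9%). Of 13 measured interferon and antigen presentation genes, 1 was called in Iso P40 against Iso P30 (Irf7, up by 0.26 ± 0.09). Among all genes 12.4% rose and 5.61% fell. The Irf7 call was lost when any of 6 samples was left out and with the Gapdh ratio as a covariate, where none rose and 2 fell. In social rats 11 rose and 1 fell in Soc P40 against Soc P30, where 12.9% of all genes rose and 11.5% fell. Of the 13, 3 (Isg15, Ifit2 and Lgals3bp) had means below the filter in both Iso groups and passed it through other groups, so the counts of this list are a description only. The median step was 0.07 in Iso and 1.15 in Soc, and for 11 of 13 genes the step was lower in isolated rats, against 5.95% of all genes. Isg15, a ubiquitin-like interferon product, had 5.72, 5.63, 5.78, 5.60 and 4.89 in Iso P40 and 5.74, 5.35, 5.63, 5.90 and 5.84 in Iso P30, where the groups overlapped. Its means of 5.53 in Iso P40 and 5.69 in Iso P30 lay under the filter of 5.72. In social rats it had 7.51, 7.72, 7.71, 7.72, 7.57 and 7.63 in Soc P40 against 5.78, 6.08, 5.66, 5.33, 5.44 and 5.78 in Soc P30, and the steps differed by -2.13 ± 0.25. The Soc P40 mean of 7.64 counts toward the mean of 5.73 over all samples with which Isg15 passed the filter. Its difference between rearings is therefore a description only. Irf7, the factor that amplifies interferon responses, stepped by 0.26 in Iso and 2.08 in Soc (difference -1.82, adjusted p = 4.25e-16). RT1-T24-4, a class I histocompatibility gene whose near copies may share probes, was the exception, with -0.31 in Iso, not called, and -1.93 in Soc.

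Outside that list, Vdac1, the main channel of the outer mitochondrial membrane, fell in Iso and rose in Soc. Its dimmer probe set had 6.44, 6.34, 6.66, 6.27 and 6.56 in Iso P40, against 7.96, 7.99, 8.03, 7.95 and 8.004 in Iso P30. The step was -1.53 ± 0.08 in Iso and 0.89 in Soc (difference -2.43 ± 0.10, adjusted p = 1.77e-23), and the brighter probe set stepped by -0.15 ± 0.04 in Iso. Further genes with a lower step in isolated rats were Hyou1, an endoplasmic reticulum chaperone (-0.50 in Iso, not called, and 1.35 in Soc), Anp32a (-0.43 in Iso and 1.37 in Soc), Pcnp (-0.78 in Iso and 0.84 in Soc), Pacsin1, an endocytic adaptor (-1.03 in Iso and 0.45 in Soc), and Ppm1a, a phosphatase (-1.38 in Iso and -0.02 in Soc). The Ppm1a difference between rearings was -1.36, and -0.81 without sample 5 of Iso P40, and with the Gapdh ratio as a covariate it was -0.99 and not called (adjusted p = 0.199). That of Hyou1 was -1.85, and with both ratios as covariates it was -1.78 and not called (adjusted p = 0.067). Genes with a higher step in isolated rats beside Ttr were Myef2 (0.46 in Iso and -0.60 in Soc), Chuk, a kinase of the NF-kB pathway (0.41 in Iso and -0.43 in Soc), and Vcpip1 (0.70 in Iso and -0.11 in Soc). Pdyn, the precursor of dynorphin, stepped by 0.45 in Iso, where it was not called, and by -0.56 in Soc (difference 1.01, adjusted p = 0.00896), which was not called with the Gapdh ratio as a covariate (adjusted p = 0.132). With that covariate the difference was 1.28 for Vcpip1 and 2.55 for RT1-T24-4, against 0.81 and 1.62 without.

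Later ages placed these levels in order. The comparisons of Iso P60 with Iso P40 and of Iso P80 with Iso P30 share samples with the step, so their values stand beside it without a test of likeness. The mean level of the immediate early gene list was 7.38 in Iso P30, 7.66 in Iso P40, 7.41 in Iso P60 and 7.63 in Iso P80. Between Iso P60 and Iso P40 the difference was -0.62 for Arc and -0.47 for Fos. Over the list 2 genes were higher and 9 lower in Iso P60 than in Iso P40, where 12.5% of all genes were higher and 18.3% lower (30.7% in either direction). The mean level of the myelin list was 8.76 in Iso P30, 8.51 in Iso P40, 8.57 in Iso P60 and 8.55 in Iso P80. In Iso P80 against Iso P30, 14 of its 24 genes were lower and 6 higher, where 19.6% of all genes were lower and 26.7% higher (46.3% in either direction). Ugt8, Mal, Mag and Tspan2 differed by -1.15, -0.76, -1.01 and -0.94 in that comparison, and Mbp, through its brightest probe set, by 0.02, not called. The ribosomal list was at 10.41 in Iso P30, 10.29 in Iso P40, 10.43 in Iso P60 and 10.53 in Iso P80. For Ttr the difference between Iso P60 and Iso P40 was -2.14. Each of the 15 largest falls had a higher value in Iso P60 than in Iso P40, by 1.07 (Kif5c) to 1.99 (Canx). These genes were chosen for low values in Iso P40, so part of this rise is built in. The Gapdh 3' to 5' ratio averaged 1.36 in Iso P60, against 1.87 in Iso P40 and 1.34 in Iso P30. For actin it averaged 3.94 in Iso P60, against 4.20 in Iso P40 and 2.44 in Iso P30. The part of RNA integrity in these later differences was not tested.

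**Figure D5:**
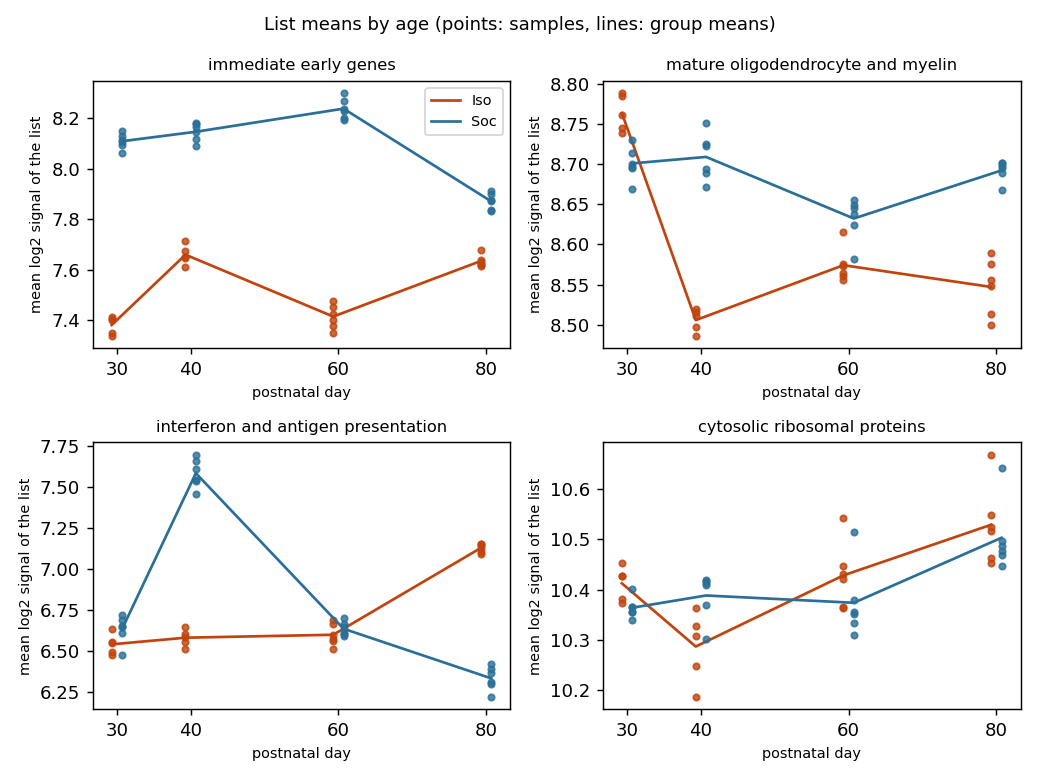
Mean log2 signal of 4 gene lists by postnatal day, 1 point a sample and lines through the group means, for isolated and social rats (each panel has its own axis, which does not start at 0). The myelin list of Iso drops to 8.51 at P40 and stays below Soc, the immediate early list of Iso lies below Soc at all 4 ages, and the interferon list of Soc peaks at P40.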

How the data were processed

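Members, gene lists and tests were chosen with earlier results of these data known. The deposited table holds log2 signals of 20304 probe sets on 47 arrays, which per the submitters' processing notes are the authors' MAS5 values, from 7 ug of total RNA. The authors' deposited text of filtering criteria gives counts of probe sets: 20304 of 31099 passed. Scaling had been done before deposit (2% trimmed mean signals of 156.6 to 161.4), and no normalization was added. Arrays 3 and 4 of Iso P30 lay 0.116 apart (root mean square, log2), against 0.175 or more for the other 114 pairs within groups, and were averaged. How many arrays there are sets the precision.

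Probe sets were kept at a mean log2 signal of at least the 40th percentile (5.72), which left 12149. Symbols came from the platform annotation: 14607 probe sets had 1, 326 several and 5316 none. The fit was limma 3.58.1 (R 4.3.3) with 8 group means, a variance trend (38 residual degrees of freedom), and tests were two-sided with Benjamini-Hochberg adjustment over all kept probe sets at 0.05. The rearing difference was tested in the same fit. The 38 lists, with 1159 entries, were described by counts and medians through each gene's brightest probe set. Named genes were the 15 largest rises and 15 largest falls called (taking a gene by the probe set with the smallest p), 10 each way for the rearing difference, and up to 5 members a list. Control ratios were compared by exact permutation tests, adjusted over 4 measures. On simulated data for this step the fit recovered 40% of probe sets changed 1.2-fold and 90% of those changed 1.5-fold. Of its 174 calls 9 were false. The simulated noise was independent and normal, with no shift in RNA integrity between groups, so these values need not hold for the real arrays. Alternatives covered the filter, scaling, pseudocount, spread, covariates, blocks and single samples. Figures were drawn with matplotlib.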

Additional observations from a re-analysis of the deposited data

Results flagged for a closer look

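Single samples stood apart from the rest of their group in 6 of 68 groups of values tested, where chance gives about 1 in 20. Sample 2 of Iso P40 was at 2.73 for Poldip2, below the others of that group, and sample 2 of Iso P30 was at 7.21 for Canx, above its group. In Iso P40, sample 1 was high for Wdfy1 (7.28), sample 3 was high for Cadm1 (9.36), and sample 4 was low for Ccdc127 (5.80) and high for Abhd8 (6.52).

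For 24 of the 30 named genes of the step, the step in isolated rats differed from that in social rats (Iso minus Soc, limma, adjusted p under the threshold), against 16.7% of all probe sets. The genes were chosen for large steps in isolated rats, which are part of this difference, so the count is a description. Among the rises the difference was 5.08 for Ttr, 0.996 for Degs1, 0.65 for Wasl, 0.59 for Naa15, 0.65 for Thoc2, 0.72 for Tlk1, 0.76 for Sorl1, 0.68 for Wdfy1, 0.57 for Fos and 0.54 for Camta1. Among the falls it was -2.43 for Vdac1, -2.09 for Poldip2, -1.23 for Mbp, -1.15 for Mobp, -1.11 for Ppp3r1, -1.02 for Ptpa and -0.995 for Canx. It was -0.93 for Abhd8, -0.85 for App, -0.80 for Klc1, -0.80 for Scd2, -0.72 for Actr2-ps1, -0.58 for Syt4 and -0.48 for Sbf1.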

How the results depend on the processing

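Through their named probe sets, the 30 genes of the step kept their call and direction under every alternative that kept the probe set. No named gene reversed. The filter at the 60th percentile removed some of these probe sets, among them those of Ttr and Canx. The named genes were not scored through their brightest probe sets here, which in the main fit were not called for 4 of the rises and 8 of the falls. Medians of some lists did change sign with the Gapdh ratio as a covariate. That of the oligodendrocyte precursor list went from -0.05 to 0.18, that of the interferon list from 0.07 to -0.11 and that of the GABA receptor list from 0.05 to -0.07. The size changed by over 1.5 times in 8 of the 30 in the covariate fits. Among the genes named for the rearing difference, 5 were no longer called with the Gapdh ratio as a covariate (Tbc1d23, Pdyn, Cryl1, Zswim8 and Ppm1a), and with both ratios Hyou1 was lost as well. In these fits 73 and 79 of 173 results moved, most of them list counts and medians. Neither ratio overlapped between Iso P40 and Iso P30, so these fits cannot tell RNA integrity and age apart. The 2656 called probe sets became 1424 and the 2028 rearing differences 1175 when each gene was counted through its brightest probe set, by construction. The 485 differences over 0.5 became 1058 with no filter, 227 with the filter at the 60th percentile, 279 with a pseudocount of 32, 89 with 1 probe set a gene, 1222 with the Gapdh ratio as a covariate and 1225 with the Gapdh and actin ratios. With these covariates 2348 and 1854 probe sets were called. Fitting only the compared groups gave 2019 called probe sets for the step and 1650 for the rearing difference. The number of ribosomal genes that fell, 14, was 30 in both covariate fits, and that of immediate early genes that rose, 9, was 5 with both ratios. The 5 glutamate receptor genes that rose became 3 with no filter, with quantile normalization, with median centring and with no variance trend, and 2 in both covariate fits. The 5 sodium, calcium and HCN channel genes became 3 with median centring and 2 in both covariate fits. Apart from the filter and the count of 1 probe set a gene, whose construction changes what is counted, the cause was not tested. With single samples left out, the calls ranged from 2236 to 2648, those over 0.5 from 499 to 524, the rearing differences from 1789 to 2062, immediate early genes from 8 to 9, myelin genes from 12 to 14, ribosomal genes from 9 to 13, glutamate receptors from 2 to 4 and sodium, calcium and HCN channels from 3 to 6. The share of calls that were higher was 53.1%, and from 45% (no filter) to 60.3% (60th percentile filter) over the alternatives. Replicate numbers did not pair the samples (correlations of same-numbered samples from -0.03 to 0.10), and the replicate block was fitted with all 47 arrays counted apart. It gave 2775 calls, 2114 rearing differences and 488 over 0.5, against 2831, 2121 and 492 from the same arrays without the block.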
